A study of Mus musculus with 6 samples.

Results

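The stable distal peaks described here are 6075 open-chromatin regions of mouse regulatory T (Treg) cells that were called in cells with and without the transcription factor Bcl11b. They were chosen from the wild-type (WT) list of 38258 peaks by 3 criteria. The peak stands in the first 40% of the rows of that list. It overlaps a peak of the knockout (KO) list by at least 1 bp, and its place in that list (row number as a percent of all rows, called rank below, low for the top of the list) differs by less than 25. Its midpoint lies more than 1 kb from both ends of every protein-coding gene of RefSeq. These criteria use the measured lists, so the ranks and the sharing are a description and carry no test. The 6075 peaks make up 15.9% of the WT list and cover 1.33 Mb, and each is paired with a KO peak of its own among 36182.

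The assay was ATAC-seq, in which a transposase cuts and tags accessible DNA. CD4+YFP+ cells were sorted from draining lymph nodes and spleen of C57BL/6 mice, and 100000 cells were lysed for each of 6 samples. The WT group has 3 samples of the genotype Bcl11b w/w Foxp3-IRES-YFP-Cre, and the KO group has 3 of Bcl11b f/f Foxp3-IRES-YFP-Cre. Both groups carry Cre and YFP from the Foxp3 locus, so the controls express Cre too. By this design Bcl11b is to be deleted in cells that have turned on Foxp3. How complete the deletion was, and whether it stayed within those cells, cannot be read from the lists. The sources used here give neither the part of the gene between the loxP sites nor the age of the mice. The deposited data are 1 merged peak list for each genotype, with no value per sample, no read count and the same score in every row. No spread between replicates and no depth can therefore be given, and no difference between genotypes was tested. The intervals below are 95% intervals for counting error only, and they treat neighbouring peaks as independent. In such lists a site that is open in fewer cells and a site that is less open in every cell cannot be told apart.

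Open chromatin away from gene ends holds many enhancers, short stretches of DNA bound by transcription factors that act on promoters at a distance. Promoters lie there as well, since a gene can start transcription at internal, alternative sites and since noncoding genes have starts of their own. Foxp3 directs the Treg programme largely on open sites prepared by other T cell factors such as Ets1 and Runx1. Bcl11b is a zinc-finger factor needed for T cell commitment and for Treg function.

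Although all of the peaks lie outside the 1 kb zones around gene ends, 1197 of them (19.7%, 18.7 to 20.7) had a listed transcription start within 1 kb. Of these, 883 were near a start of a protein-coding gene inside or outside the gene body, and 314 were near the start of a long noncoding RNA (lncRNA) gene alone. The word distal thus holds for gene ends and not for every start, and 4878 peaks were away from both kinds of listed start. Of the 21887 protein-coding genes, 17492 had a listed start, so peaks near starts of the other genes could go uncounted. The next sequences show what such peaks look like at 6 T cell genes whose peak overlaps a promoter window of the gene itself, from 250 bases before to 50 after a listed start. The 6 were picked after their values were seen. Each line gives the bases of the WT peak that lie in that window and before the start, read 5′ to 3′ on the strand of the gene, from RefSeq's GRCm38.p6 (mm10). Capitals mark matches to any of 20 motifs, which are spelled out with the motif counts.
Stat5a, chr11:100860311-100860483, plus strand: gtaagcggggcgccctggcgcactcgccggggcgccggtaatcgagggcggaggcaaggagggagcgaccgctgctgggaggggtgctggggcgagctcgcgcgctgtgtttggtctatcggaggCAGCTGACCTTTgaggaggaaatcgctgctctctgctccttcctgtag
Nfkb2, chr19:46305474-46305692, plus strand: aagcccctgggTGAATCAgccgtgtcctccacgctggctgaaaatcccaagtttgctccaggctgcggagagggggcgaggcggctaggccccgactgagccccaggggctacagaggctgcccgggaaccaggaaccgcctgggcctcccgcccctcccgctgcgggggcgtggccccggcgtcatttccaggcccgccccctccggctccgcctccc
Prdm1, chr10:44458749-44458954, minus strand: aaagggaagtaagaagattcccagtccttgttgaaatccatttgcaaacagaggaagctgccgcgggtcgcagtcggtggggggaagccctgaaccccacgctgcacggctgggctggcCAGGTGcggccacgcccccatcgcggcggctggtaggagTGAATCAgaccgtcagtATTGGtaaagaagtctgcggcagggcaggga
Mcl1, chr3:95658515-95658720, plus strand: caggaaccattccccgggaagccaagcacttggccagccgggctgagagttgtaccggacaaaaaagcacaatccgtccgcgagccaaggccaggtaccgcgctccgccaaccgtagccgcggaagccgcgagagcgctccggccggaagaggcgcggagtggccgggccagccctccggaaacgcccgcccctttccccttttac
Lck, chr4:129558409-129558622, minus strand: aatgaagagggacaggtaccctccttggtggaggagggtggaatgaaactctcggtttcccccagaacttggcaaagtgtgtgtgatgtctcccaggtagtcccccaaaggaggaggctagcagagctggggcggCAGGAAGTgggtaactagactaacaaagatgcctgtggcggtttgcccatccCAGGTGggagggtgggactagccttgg
Bcl2l11, chr2:128127325-128127531, plus strand: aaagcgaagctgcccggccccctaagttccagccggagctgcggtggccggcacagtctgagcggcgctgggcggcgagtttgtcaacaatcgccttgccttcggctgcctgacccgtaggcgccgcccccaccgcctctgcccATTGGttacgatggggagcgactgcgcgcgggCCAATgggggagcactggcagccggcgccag
Stat5a encodes the signal transducer downstream of the IL-2 receptor. Its printed bases hold the E-box CAGCTG and, overlapping it, the NR4A letters AAAGGTCA read on the other strand. Nfkb2 encodes a subunit of the noncanonical NF-kB pathway, and Prdm1 encodes Blimp-1, a factor of effector Treg cells. Both pieces hold the AP-1 letters TGANTCA. The piece at Lck, the kinase that starts signalling from the T cell receptor, holds the ETS letters CAGGAAGT. The piece at Bcl2l11, which encodes the death-promoting protein Bim, holds CCAAT on both strands. At Mcl1, a survival factor of the Bcl-2 family, none of the 20 motifs was found in these letters. In the ranks, the Stat5a peak stood at 16.3 in WT and 9.53 in KO, the Prdm1 peak at 12.7 and 9.25, and the Bcl2l11 peak at 14.8 and 4.91. The Lck peak stood at 24.98 in WT and 32.6 in KO, the Mcl1 peak at 26.1 and 28.6, and the printed Nfkb2 peak at 22.9 and 23.9. In all, 11 genes of the lists used below had such a peak over their own promoter window, with 13 peaks among them. The others were Cd55, Egr2, Nfil3, Nr4a1 and Stat5b.

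The paired ranks show how far the criteria narrowed the set. Of the whole WT list, 70.5% of peaks overlapped a KO peak, and in its first 40% of rows the share was 92.1%. That first portion held 15303 peaks, of which 7358 were distal, 6644 were distal and shared, and 6075 also met the rank limit (82.6% of the distal ones, which is the rule itself). WT ranks of the stable distal peaks had a median of 24.0, and KO ranks a median of 26.1 with a highest value of 64.0. The KO rank was later for 3971 peaks (65.4%) and earlier for 2104, and the 2 ranks lay within 5 of each other for 2510 peaks. The criteria leave more room for a later KO rank than for an earlier one, since WT ranks stop at 40 and KO ranks do not. For 4811 peaks (79.2%) the KO partner was also in the first 40% of its own list. Row order as a measure of peak strength is inferred from the files and is not stated in the sources used here.

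**Figure D1:**
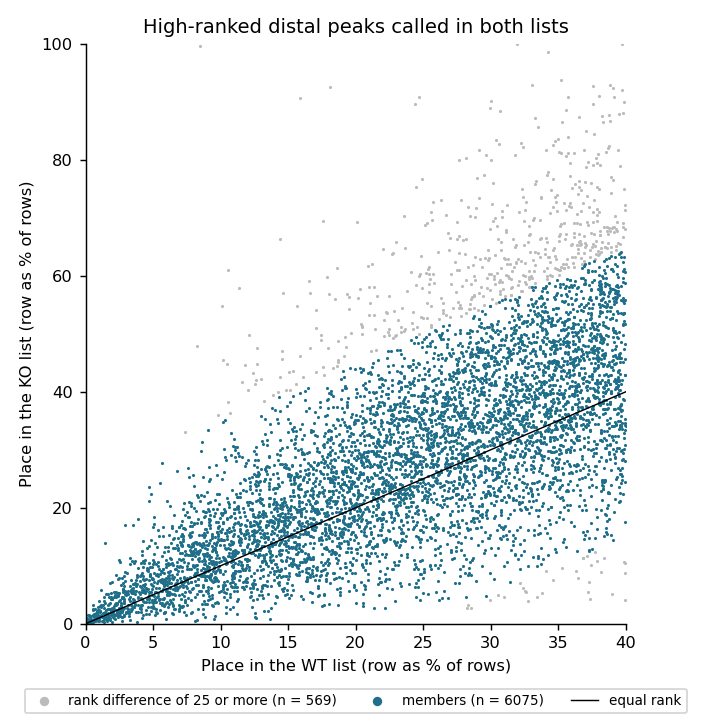
Place of each high-ranked distal shared peak in the WT list (x axis, row as percent of rows) and in the KO list (y axis, same unit), 1 point per peak. The 6075 stable distal peaks (blue, called members in the legend) follow the line of equal rank, spread more widely down the list, and reach a KO rank of 64.0, while the 569 peaks with a rank difference of 25 or more (grey) lie mostly above them.

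Peaks lay close to each limit on both sides. At the 40% limit the last peaks inside were at Bcar1, Osgin1 and Ankrd11, in rows 15298, 15299 and 15300, and the first outside were at Lrp11, Map3k5 and Reep3, in rows 15304, 15305 and 15307. At the rank limit the largest differences inside were 24.96, 24.97 and 24.99, and the smallest outside were 25.0045, -25.02 and 25.11. At the 1 kb limit the nearest peaks inside lay 1.001 kb (Patz1), 1.001 kb (Eif4a1) and 1.002 kb (Atp5g3) from a gene end, and those outside lay at 0.995, 0.996 and 0.999 kb.

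Nearness to a listed start changed along the list. In the first 10% of WT rows, 36.1% of the 944 stable distal peaks (33.1 to 39.3) lay within 1 kb of a start. The share was 22.9% of 1418 in the second band of 10%, 17.5% of 1774 in the third and 11.3% of 1939 (9.97 to 12.8) in the fourth. The first and last intervals are far apart, so the share near starts was highest at the top of the list. Distal shared peaks with a rank difference of 25 or more were near a start less often at the same WT rank. Their shares were 7.94% of 63 (2.63 to 17.6), 8.02% of 162 (4.34 to 13.3) and 5.29% of 340 (3.17 to 8.24) in the last 3 bands, each with an interval below that of the stable peaks. Distal peaks called in WT alone had shares of 22.3%, 16.0% and 8.99% in those bands, and their intervals overlapped those of the stable peaks.

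**Figure D2:**
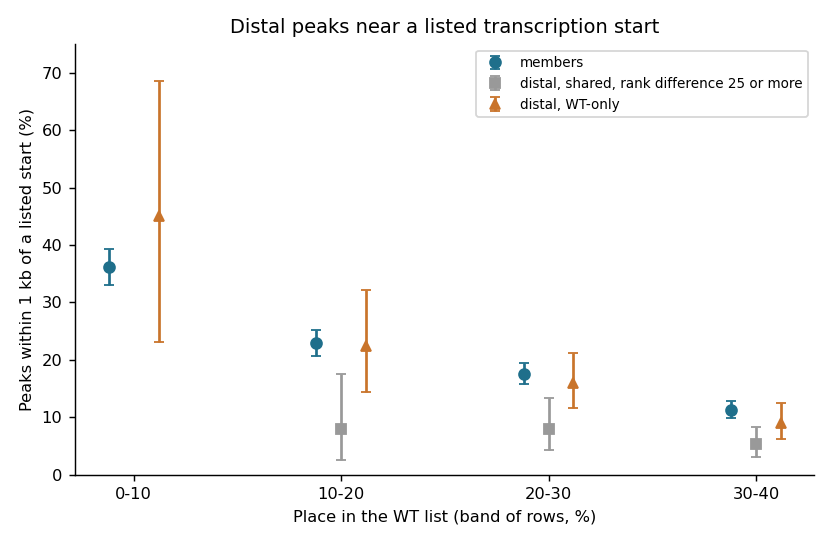
Share of high-ranked distal peaks within 1 kb of a listed transcription start (y axis, percent) by band of rows in the WT list (x axis), with 95% Clopper-Pearson intervals. The stable distal peaks (members, circles) go from 36.1% to 11.3% over the 4 bands, the WT-only peaks (triangles) lie close to them, and the peaks with a rank difference of 25 or more (squares, not drawn in the first band with 4 peaks) lie below.

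Most of the stable distal peaks were inside genes. Of the 6075, 3517 (57.9%, 56.6 to 59.1) had their midpoint in a protein-coding gene, against 51.0% (50.1 to 52.0) of the 10937 distal shared peaks from later rows. The share was 61.8% (58.1 to 65.3) of the high-ranked distal WT-only peaks and 55.2% (51.0 to 59.3) of those of unstable rank. Away from listed starts it was 52.8% (51.4 to 54.2) of the stable and 50.5% (49.6 to 51.5) of the later peaks, and these intervals overlap. The genes that held them had a median length of 75.1 kb. The median distance to the nearest gene end was 14.6 kb (13.9 to 15.3), with 15.4 kb (12.8 to 18.4) for the WT-only peaks, 18.3 kb (17.7 to 18.9) for the later peaks and 26.9 kb (22.3 to 31.4) for the peaks of unstable rank. Away from listed starts the stable and later peaks had overlapping intervals, 17.6 kb (16.7 to 18.7) and 18.6 kb (17.9 to 19.2), while the peaks of unstable rank had 26.7 kb (22.2 to 31.9). The distance was 10.2 kb in the first band of rows and 17.8 kb in the fourth. At the far end, 345 peaks (5.68%) were over 100 kb from every protein-coding gene.

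Inside genes the stable peaks leaned to the upstream side. The place was taken for peaks more than 1 kb from any listed start, in genes that have a listed start themselves. Of 2577 stable peaks in any gene and away from starts, 1896 could be placed. Their median place was at 42.3% of the gene's length from its upstream end (40.4 to 44.5). For the distal shared peaks of later rows it was 52.6% (51.3 to 54.4, 4074 peaks), close to the middle of the gene. The first 25% of the gene held 29.7% (27.7 to 31.9) of the former and 20.9% (19.7 to 22.2) of the latter. For peaks of unstable rank the median was 51.6% (45.9 to 57.2), and for high-ranked distal WT-only peaks it was 37.7% (32.9 to 43.8), whose interval overlaps that of the stable peaks.

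The WT and KO peaks of a pair lay close together. The midpoints of the fixed-width peaks, most often 219 bp in WT and 193 bp in KO, were a median of 27 bp apart (26 to 27), and 75.7% were within 50 bp. In 1642 pairs (27.0%) the KO peak lay wholly within the WT peak. Stable shared peaks at gene ends had a median offset of 25 bp (25 to 26). High-ranked distal shared peaks of unstable rank had 32 bp (27 to 36), an interval that meets that of the stable distal peaks. Of these, 67.5% (63.5 to 71.3) were within 50 bp, against 74.6 to 76.8 as the interval for the stable distal peaks. The distal shared peaks of later rows had an offset of 41 bp (40 to 42), and within the stable distal peaks the median was 23 bp in the first band of rows and 30 bp in the fourth. The criteria required an overlap, so very large offsets could not occur in any of these classes.

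**Figure D3:**
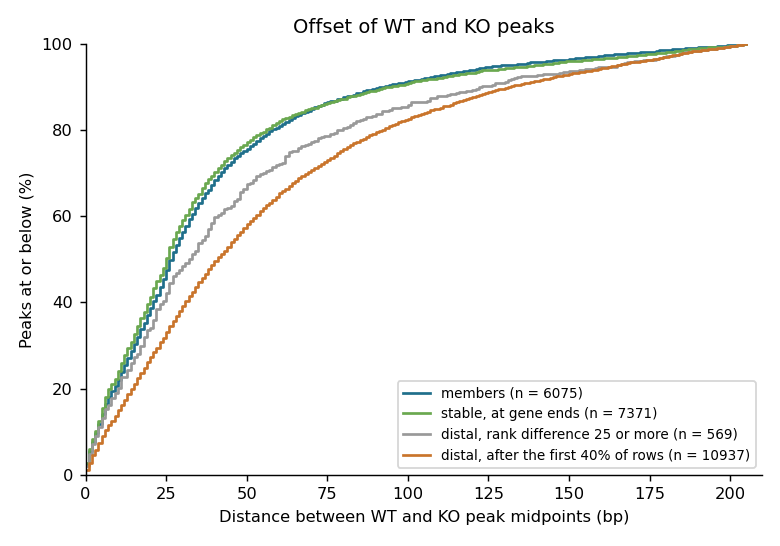
Cumulative share of peak pairs (y axis, percent) by distance between WT and KO midpoints (x axis, bp), 1 line per class. The lines of the stable distal peaks (members) and of the stable peaks at gene ends nearly coincide, with medians of 27 and 25 bp, and the later distal peaks lie below them with a median of 41 bp. The distal peaks with a rank difference of 25 or more have a median of 32 bp.

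Stable distal peaks often came in groups. Of the 6075, 1808 (29.8%, 28.6 to 30.9) had another within 10 kb, against 23.3% (22.5 to 24.1) among the 10937 later distal shared peaks and 17.8% (17.0 to 18.7) among 7371 stable peaks at gene ends. This share also moves with the number of peaks in a class. Joining peaks with gaps of at most 10 kb gave 5071 chains, of which 4267 were lone peaks and 34 had 4 or more. The longest had 8 peaks over 40.2 kb at chr4:145214569-145254752, nearest to Tnfrsf1b, which encodes the TNF receptor that supports Treg expansion. Of the 9 WT peaks in it, 0 were called in WT alone, and 1 KO-only peak lay there. At chr8:83736816-83757017, at Adgre5 (the leukocyte adhesion receptor CD97), 6 of 6 WT peaks were stable distal peaks. The chain at chr13:23430790-23453746, near Abt1 and Btn1a1, also had 6 and overlapped 2 transfer RNA (tRNA) genes, n-TVcac9 and n-TRacg5.

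The top rows stood apart from the rest. The chain of 6 at chr9:3002036-3024573, 310.8 kb or more from any protein-coding gene, held WT rows 1, 2, 5, 6 and 8, and its KO partners were in rows 1, 3, 4, 6 and 8. The other WT rows of the first 8 were on chromosomes Y (row 3, chrY:4036565-4036783) and X (row 4 between genes near Pak3, and row 7 inside Apool). Whether regions of extreme signal were removed before the lists were made is not given in the sources used here.

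Peaks of 1 genotype alone were common around the stable ones. A WT-only or KO-only peak lay within 10 kb of 39.7% (38.5 to 40.9) of the stable distal peaks, against 32.4% (31.6 to 33.3) of the later distal shared peaks and 25.7% (24.7 to 26.7) of the stable peaks at gene ends. It was 34.3% (30.4 to 38.3) for the peaks of unstable rank and 70.7% (67.2 to 74.0) for the high-ranked distal WT-only peaks. The neighbours of the stable distal peaks comprised 1382 WT-only and 1420 KO-only peaks. The KO-only share was therefore 50.7% (48.8 to 52.5), where KO-only peaks made up 44.9% of all genotype-specific peaks. Around the later distal shared peaks the share was 46.5% (45.0 to 48.1), and around the stable peaks at gene ends it was 49.5% (47.4 to 51.6), which overlaps the value for the stable distal peaks. It was 41.5% (35.5 to 47.7) around the peaks of unstable rank. Around the high-ranked distal WT-only peaks it was 78.5% (75.1 to 81.6), but peaks of that class were not counted as neighbours of each other. Of these 714 peaks, 94 had another of the class within 10 kb, so that share is too high and cannot be set beside the others. Each list was called once, so a peak missing from a list may also have fallen just short of the calling threshold.

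Peaks were assigned to the protein-coding gene around their midpoint, or failing that to the nearest within 100 kb. This placed at least 1 stable distal peak at 3508 of 21887 genes (16.0%). Among the 13682 genes with any WT peak the share was 25.6%. Counts per gene were mostly low, with 1177 genes at 2 or more, 135 at 5 or more and 22 at 8 or more. The highest count was 11, at Akap13, which encodes a protein kinase A anchor, at Arhgef3, and at Bach2, whose product represses effector programmes in T cells. Atxn7l1, the chromatin remodellers Chd2 and Chd7, and the transcription factors Ets1 and Foxp1 had 10 each. Arid5b, which encodes a DNA-binding protein, and Pde4d, which encodes a phosphodiesterase that degrades cyclic AMP, had 9, as did Prkch, Tiam1 and Wwox. These genes are long, from 115 kb (Chd2) to 1302 kb (Pde4d) among the first 10, against a median of 17.2 kb over all genes. The counts at the long genes depend on the assignment: by nearest gene end, Akap13 had 7, Foxp1 2 and Pde4d 1.

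These genes also held peaks that were not shared. Bach2 had 38 WT peaks, of which 16 were WT-only, and 5 KO-only peaks lay with them. Foxp1 had 40 WT peaks with 17 WT-only and 8 KO-only. Chd2 differed in this, with 18 WT peaks, 2 WT-only and 1 KO-only. At Ets1, KO ranks were later in 8 of 10 stable distal peaks, where 65.4% of the whole set ranked later, so Ets1 does not stand apart. The peak at chr9:32740995-32741213 in the gene body ranked 7.67 in WT and 25.3 in KO. That is a wider difference than the median of 3.17 (KO minus WT) over the set. At Tcf7, a factor of naive and memory-like T cells, the 5 peaks went both ways, from 26.6 in WT and 5.62 in KO at chr11:52268431-52268649 to 13.3 and 19.1 at chr11:52314278-52314496. At S1pr1, the receptor that guides lymphocytes out of lymph nodes, 8 peaks lay between genes, 14.4 to 84.5 kb from the nearest gene end.

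Genes that define Treg cells had stable distal peaks. Foxp3 had 1 WT peak assigned to it, and it was a stable distal peak, at chrX:7584020-7584238 inside the gene and 4.45 kb from its nearest end, with a rank of 12.1 in WT and 11.1 in KO. Within 100 kb of Foxp3 lay 13 WT peaks, of which 3 were stable distal peaks and 3 were WT-only, and 2 KO-only peaks. Il2ra, the high-affinity IL-2 receptor chain, had 2 of 6 WT peaks in the set. The one inside the gene at chr2:11653483-11653701 ranked 17.0 in WT and 19.5 in KO, and the one upstream at chr2:11635159-11635377 ranked 38.6 and 35.2. Il10, the inhibitory cytokine gene, had 1, at chr1:130993769-130993987 and 26.0 kb from the nearest gene end, with ranks of 15.9 and 15.5. Of the 4 stable distal peaks assigned to these genes, the upstream one at Il2ra had the widest rank difference between the lists, -3.41 as KO minus WT.

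The inhibitory receptor gene Ctla4 and the Helios gene Ikzf2 had 5 stable distal peaks each, with wider rank differences. The peak inside Ctla4 at chr1:60913386-60913604 ranked 3.95 in WT and 5.52 in KO. At chr1:60898683-60898901 the ranks were 19.6 and 44.1, and at chr1:60887030-60887248, which overlaps the promoter of the noncoding gene Gm39650, they were 21.6 and 45.5. Both differences, 24.5 and 23.9, were just inside the limit of 25. The neighbouring peak at chr1:60899376-60899594 went the other way, with 39.6 in WT and 21.2 in KO. Within Ikzf2 the ranks were 8.72 and 8.19 at chr1:69544258-69544476, 12.5 and 17.7 at chr1:69683087-69683305, and 32.5 and 52.1 at chr1:69670093-69670311. With the rank limit at 15 in place of 25, Ctla4 had 2 such peaks and Ikzf2 had 3.

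Bcl11b itself had 2 stable distal peaks among its 11 WT peaks. Both were in the gene body, at chr12:107971482-107971700 (rank 34.8 in WT, 45.4 in KO) and chr12:107993202-107993420 (37.1 and 33.9). With them were 5 WT-only and 5 KO-only peaks. With only the first 30% of rows, Bcl11b had 0. Since the deleted part is not given, these peaks do not check the deletion.

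Gene lists for T cell programmes held stable distal peaks at a larger share of their genes than the 16.0% of all genes. For 10 of the 19 lists the whole interval lay above that share. Counted over genes with a WT peak alone, where the share over all such genes is 25.6%, it did so for 8, without the co-inhibitory and chemokine lists. Of the factors known for Treg chromatin, 23 of 24 had at least 1 (95.8%), Cbfb being the exception, and of the homing and naive-state genes 15 of 16 (93.8%). The shares were 12 of 16 for IL-2 and STAT5 signalling, 17 of 23 for T cell receptor activation and 20 of 29 for the Treg signature. T cell identity had 14 of 23, apoptosis and survival 9 of 14, and Th1 genes 8 of 14. Co-inhibitory receptors had 6 of 12 and chemokine receptors and effector homing 8 of 18. The intervals of the Th2 list (4 of 10), the Th17 list (4 of 12), the cytotoxic and NK list (7 of 20) and the CD8 T cell list (3 of 10) held the share of all genes. The median gene of the Treg signature had 2 stable distal peaks, and the median over all genes was 0. The lists hold genes in common, and the genes of the Treg chromatin list are long, with a median of 81.6 kb against 17.2 kb. Many WT peaks lay at such genes, 266 at the 24 of Treg chromatin and 181 at the 29 of the Treg signature. All 21887 genes had 36095. The share of genes with at least 1 peak of a class also moves with the number of WT peaks. Other classes were not counted over the lists, so the larger shares are not shown to be particular to the stable distal peaks.

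As a share of the WT peaks assigned to a list's genes, stable distal peaks made up 41.6% for IL-2 and STAT5 signalling, 33.6% for T cell receptor activation, 33.3% for T cell identity and 29.8% for the Treg signature, against 15.9% for all protein-coding genes. The WT peaks counted here include those at gene ends and in later rows, which the criteria leave out. These shares thus also move with how many of a list's peaks are distal and high-ranked, which was not counted. In IL-2 signalling the receptor chain gene Il2rb had 3, the kinase gene Jak1 4, Stat5b 4, Bcl2 6, and the feedback inhibitors Cish 2 and Socs1 1, while Socs2 had 0 with 3 WT-only and 5 KO-only peaks. Among the activation genes Nfkb1 and the adhesion receptor gene Cd44 had 5 each and Nr4a1, an early response gene of receptor signalling, had 4. In the Treg signature Ctla4, Ikzf2, Nrp1, Rgs1 and Cd83 had 5 each, while Itgae, Gpr83 and Lag3 had 0. Cd3e, Cd3d and Cd3g, the receptor's signalling chains, also had 0, with 4 WT peaks in all.

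For genes of other cells the intervals held the background share. The lists had 3 of 14 genes with a stable distal peak for B cells, 2 of 18 for myeloid cells, 1 of 14 for red cells and megakaryocytes and 2 of 18 for non-lymphoid tissue, against 16.0% over all genes. The summed peaks were 3, 3, 1 and 7, of which 6 were at Mbp. Any WT peak was assigned to 9 of the 14 B cell genes, 9 of the 18 myeloid genes, 7 of the 14 red cell and megakaryocyte genes, 12 of the 18 non-lymphoid genes and 7 of the 10 CD8 T cell genes. Genes of other cells thus held open chromatin in these lists, and whether it came from such cells was not tested. Some defining markers had neither a stable distal peak nor any other WT peak, among them Cd79a and Ms4a1 of B cells, Csf1r and Adgre1 of macrophages, Hbb-bs of red cells and Cd8a of CD8 T cells. Other markers of these cells did have WT peaks, though no stable distal peak. Among them were Pax5 of B cells (2), Spi1 of myeloid cells (3), Hbb-bt of red cells (1) and Cd8b1 of CD8 T cells (2). Of 16 housekeeping genes 2 had stable distal peaks, Ywhaz with 5 and Actb with 2.

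**Figure D4:**
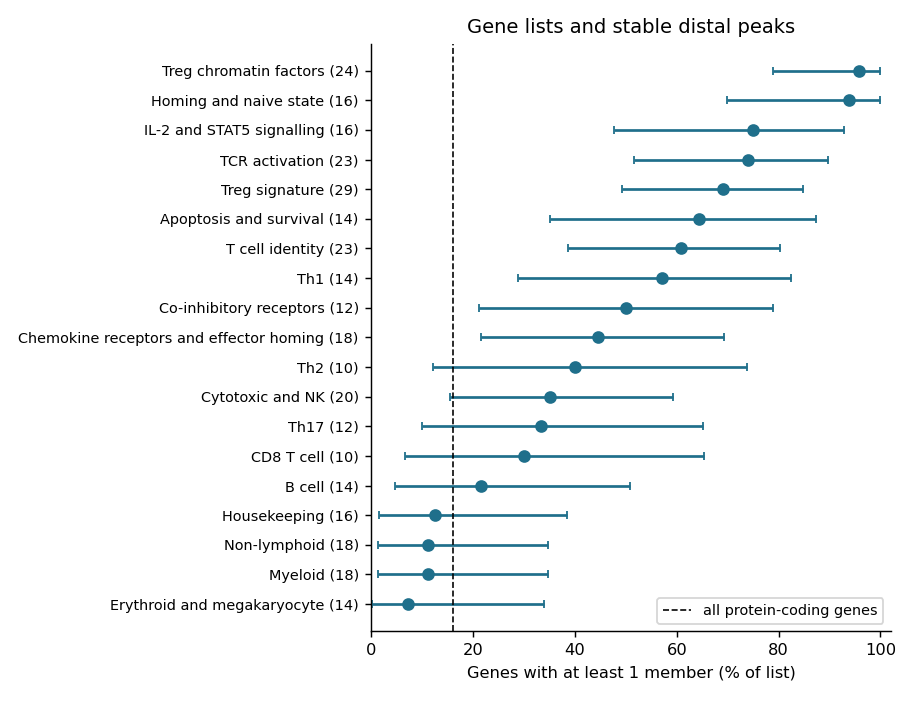
Share of the genes of each list with at least 1 stable distal peak (x axis, percent, 95% Clopper-Pearson interval), with the number of genes measured in brackets. The dashed line is the share over all protein-coding genes (16.0%). The intervals of 10 lists lie right of it, up to 23 of 24 genes for the Treg chromatin factors, and those of the B cell, myeloid, erythroid, non-lymphoid and housekeeping lists cross it.

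Noncoding genes were part of the set. Of the RefSeq promoter windows, 3.11% were overlapped by a stable distal peak and 30.2% by any WT peak. In all 870 stable distal peaks overlapped such a window, 233 of them a window of a lncRNA gene. The earliest in the list were at BC002059 (row 45), Chaserr (row 199), 2700012I20Rik (row 260), Gm35089 (row 302) and BB557941 (row 407). Chaserr is a lncRNA gene next to Chd2 that is known to restrain Chd2, and its peak at chr7:73558508-73558726, 16.9 kb from the end of Chd2, ranked 0.520 in WT and 0.420 in KO.

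Transfer RNA genes, which RNA polymerase III transcribes from promoters inside the gene, made up a larger share of the set than of the whole WT list. Of 408 tRNA genes, 24 (5.88%) lay under a stable distal peak and 46 (11.3%) under any WT peak. These 24 peaks were 0.395% of the set, and the 46 were 0.120% of the WT list. Of the other 22, 12 lay at gene ends of protein-coding genes and 3 were distal and WT-only. The 10937 later distal shared peaks held 5, and the 569 peaks of unstable rank held 2. With 2 peaks that class cannot be told from the stable one, so the larger share is not shown to be particular to the stable peaks. Chromosomes 11 and 13 held 6 and 5 of the 24. Their ranks had a median of 16.7 in WT and 24.2 in KO, and the first, at n-TYgta2 (chr3:19628728-19628946), ranked 0.894 and 2.05.

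Of 1228 microRNA genes, 4 lay under a stable distal peak and 29 under any WT peak. Peaks over such genes were 0.0658% of the set and 0.0732% of the WT list, so they were no more frequent in the set. Of the 4 stable distal peaks, 3 matched a hairpin in RefSeq's sequence table. The let-7i hairpin was under chr10:122985523-122985741 (rank 18.1 in WT, 24.9 in KO), and that of miR-132, a microRNA whose transcription follows CREB, was under chr11:75173614-75173832 (26.0 and 30.9). A mature form of each is shown from RefSeq, 5′ to 3′, with the seed (bases 2 to 8), through which targets are paired, in capitals.
mmu-let-7i-5p: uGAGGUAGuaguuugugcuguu
mmu-miR-132-3p: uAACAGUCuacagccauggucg
The seeds differ, so the 2 belong to different microRNA families. The third hairpin was Mir7655, near Mllt10, at ranks of 29.6 and 26.8.

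Sequence could be examined only where RefSeq's promoter windows meet the peaks. The 870 stable distal peaks at a window were compared with 5207 windows under stable peaks at gene ends and with all 32851 windows, taking the window of 300 bases and both strands. Motifs of T cell factors were those of ETS (CAGGAAGT), RUNX (TGTGGTT), STAT (TTCCNGGAA), TCF-LEF factors (CTTTGATC) and T-box factors (AGGTGTGA). The nuclear factor NFAT was searched as TGGAAAA, factors of the GATA family as AGATAA, forkhead factors as TGTTTAC and NR4A receptors as AAAGGTCA. AP-1 was searched as TGANTCA and CREB, under the name CRE, as TGACGTCA. E-boxes were searched in the form CAGCTG and, separately, in the form CACCTG. Promoter motifs were the GC box (GGGGCGGGG), the KLF box (CCACACCC) and the box of NFY (CCAAT). Cores of CTCF, NF-kB, IRF and NRF1 were searched as well. A match is a string of letters and shows no binding.

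The ETS letters, bound by the family of Ets1, were more frequent in the windows of the stable distal peaks than in promoters at gene ends. They were in 6.44% of the former (4.90 to 8.28), in 3.53% of the latter (3.05 to 4.07) and in 3.33% of all windows. In the central 100 bases alone the shares were 1.95% (1.14 to 3.11) and 0.999% (0.747 to 1.31), with intervals that overlap. For windows of protein-coding and of lncRNA starts alone the shares were 6.34% (4.61 to 8.48) and 6.73% (3.73 to 11.0). Under the later distal shared peaks it was 8.57% of 280 (5.57 to 12.5), which overlaps the value for the stable peaks. The first 4 stable distal peaks by row that lie wholly inside the window of a protein-coding gene and hold the ETS letters, with 1 chromosome left out of the choice, are shown in the same way as above, with those letters alone in capitals.
Cep70, chr9:99243166-99243340, plus strand: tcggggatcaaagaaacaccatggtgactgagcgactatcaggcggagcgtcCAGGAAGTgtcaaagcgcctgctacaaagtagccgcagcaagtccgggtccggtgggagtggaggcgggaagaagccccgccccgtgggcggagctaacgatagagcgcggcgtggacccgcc
Tmem144, chr3:79842710-79842928, minus strand: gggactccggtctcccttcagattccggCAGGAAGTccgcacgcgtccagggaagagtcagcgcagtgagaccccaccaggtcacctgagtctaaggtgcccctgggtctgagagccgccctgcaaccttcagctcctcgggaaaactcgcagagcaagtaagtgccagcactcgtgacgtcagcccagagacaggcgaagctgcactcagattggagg
Psen2, chr1:180256301-180256502, minus strand: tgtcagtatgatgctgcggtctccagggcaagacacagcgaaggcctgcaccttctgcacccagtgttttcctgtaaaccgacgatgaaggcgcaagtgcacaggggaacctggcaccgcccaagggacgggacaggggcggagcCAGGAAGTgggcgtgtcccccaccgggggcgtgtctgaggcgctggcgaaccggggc
Oma1, chr4:103313611-103313829, plus strand: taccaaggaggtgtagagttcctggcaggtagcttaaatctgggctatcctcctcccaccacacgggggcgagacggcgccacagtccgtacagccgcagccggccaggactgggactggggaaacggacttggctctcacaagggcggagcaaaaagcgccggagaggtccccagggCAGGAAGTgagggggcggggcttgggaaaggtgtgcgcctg
Cep70 encodes a centrosome protein, Psen2 a catalytic subunit of gamma-secretase and Oma1 a mitochondrial protease. The Psen2 peak ranked 6.97 in WT and 6.55 in KO, and the Tmem144 peak 6.80 and 26.3.

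The windows were rich in G and C. Their median GC content was 61%, against 62.3% at gene ends and 52.7% over all windows, and the ratio of observed to expected CpG was 0.764, 0.826 and 0.384. The NRF1 letters were in 12.2%, 13.7% and 4.60% of the 3 sets, the CTCF letters in 14.5%, 14.5% and 8.61%, and the GC box in 19.4%, 24.3% and 11.4%. The GC box and CCAAT (37.7%, 34.5 to 41.0, against 44.2%, 42.8 to 45.6) were less frequent than at gene ends, with intervals that do not overlap over the whole window. In the central 100 bases they do: the GC box was in 7.47% (5.81 to 9.42) and 9.37% (8.59 to 10.2), and CCAAT in 21.3% (18.6 to 24.1) and 25.1% (23.9 to 26.3). AP-1 letters were in 4.83% (3.50 to 6.47), below the 7.81% of all windows, and GATA letters in 6.09% (4.60 to 7.89), below 11.2%. Windows at gene ends were low as well, with 3.78% (3.28 to 4.34) for AP-1 and 4.69% (4.13 to 5.30) for GATA. Both intervals overlap those of the stable distal peaks. RUNX letters were in 10.6% (6.75 to 15.6) of the windows of lncRNA starts and in 3.78% (2.46 to 5.52) of those of protein-coding starts, and in the central 100 bases in 2.88% (1.07 to 6.17) and 1.96% (1.05 to 3.33), which overlap.

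**Figure D5:**
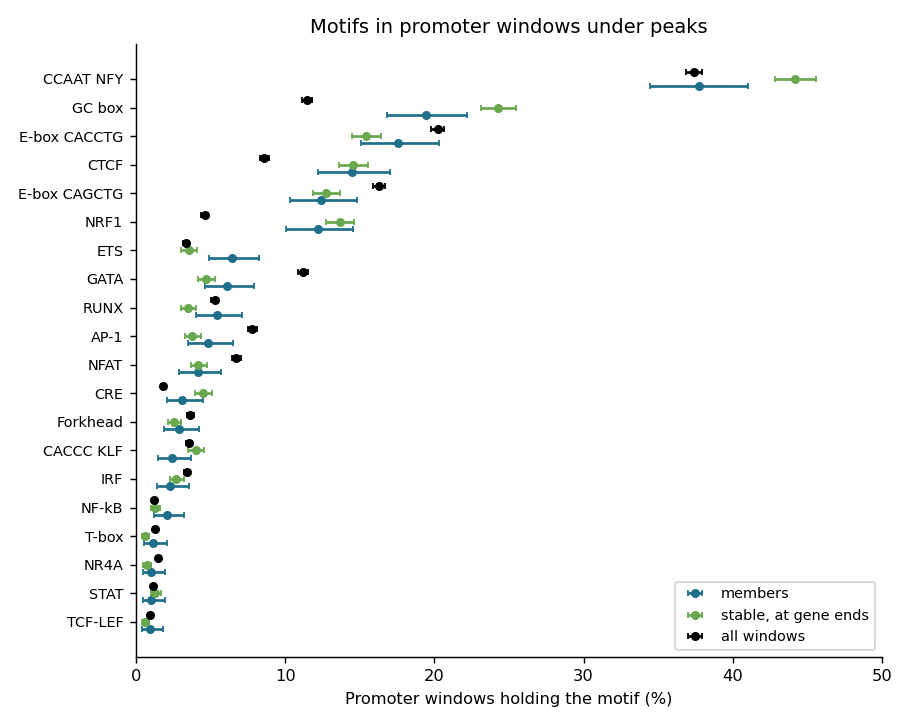
Share of promoter windows that hold each of 20 motifs (x axis, percent, 95% Clopper-Pearson intervals) under stable distal peaks (blue, members), under stable peaks at gene ends (green) and over all windows (black). ETS stands at 6.44% for the stable distal peaks and at 3.53% and 3.33% for the other sets, and for CTCF and NRF1 the blue and green intervals overlap, right of the black.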

How the data were processed

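ATAC-seq peaks of 3 WT and 3 KO samples were read from 2 BED lists, 1 per genotype, that the authors deposited on mm10. The deposited score column holds 1 in every row, so peaks were ranked by row number. Per the submitters' processing notes the tools were HOMER 4.10.1, HISAT2 2.1.0, SAMtools 1.3, cutadapt 1.12, Trim Galore 0.4.2, deepTools and FastQC. The sources used here give no calling threshold or read shift and do not say how samples were merged.

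Overlaps, distances, gene assignment and motif matches were computed in Python 3.11.15 (numpy 2.4.6, pandas 2.3.3, scipy 1.17.1), with figures in matplotlib 3.10.9. The overlap, distance and gene steps were tested on 800 simulated peaks against bedtools 2.31.1, with 0 differences. Gene ends, starts and sequences came from RefSeq GRCm38.p6. Shares have Clopper-Pearson intervals and medians order-statistic intervals. No genome was used, so motifs were counted in promoter windows and not in whole peaks. Sequences to print were taken from all chromosomes but 18.

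The peaks and gene lists were chosen with earlier results of these data known. Named genes were Bcl11b, Foxp3, Il2ra, Ctla4, Ikzf2 and Il10, the 10 with most stable distal peaks, and up to 3 per list with at least 2. Named regions were the first 10 by WT row, the 5 first by KO rank, those within 100 kb of the 6 genes, the 3 next to each limit, the longest chains and the first 5 at noncoding promoters. Other genes in the text were named after their values were seen. Alternatives varied the overlap, the part of the list, the rank limit, the gene-end limit, the genes avoided, the chromosomes, the rank measure, the assignment, the spacing and the window.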

Additional observations from a re-analysis of the deposited data

How the results depend on the processing

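The number of stable distal peaks ranged from 4136 to 7985 and the number of genes with 1 from 2487 to 4272 over the alternatives, all within 1.5 times the values given. Of 208 recomputed counts for the 16 genes named first (the 10 with most peaks and the 6 fixed genes), 184 were within 1.5 times and 24 were not. Among these, Foxp3 had 0 with a gene-end limit of 5 kb, Il10 0 within 10 kb, and Chd2 3 within 10 kb. The number of lists whose interval lay above the share of all genes was 10, and 8 to 11 under the alternatives. The number of motifs with an interval above all windows was 6, namely CTCF, ETS, CRE, NF-kB, the GC box and NRF1. In the central 100 bases it was 5, without CRE and NF-kB and with CCAAT added. There the differences from promoters at gene ends in ETS, GC box and CCAAT letters had overlapping intervals. The RUNX difference between kinds of start did so too. The share inside genes was 56.4% with the first 50% of rows, 60.2% with a gene-end limit of 500 bp, 54.0% with 5 kb and 61.4% with the ends of all RefSeq genes avoided. The median distance to a gene end was 13.2 kb with the first 30% of rows, 15.4 kb with 50%, 13.5 kb with a rank difference below 15, 11.6 kb with 500 bp, 24.4 kb with 5 kb and 13.6 kb with the KO peak also in the first 40%. The share with another within 10 kb was 27.6% when the KO peak had to cover 50% of the WT peak, 24.0% with the first 30% of rows, 32.6% with 50%, 26.9% with a rank difference below 15, 27.4% with all RefSeq ends and 27.6% with the KO peak in the first 40%, and at a spacing of 5 kb it was 18.2%. The midpoint offset was 24 bp with the 50% overlap and 28 bp with the first 50% of rows. The cause was not tested, beyond the part that each limit sets by its construction. No paired analysis was possible because the merged lists carry no value per replicate, and for the same reason no replicate could be left out. The lists give no depth, so a site missing from a list cannot be told from one just short of the threshold.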

Other observations

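Small nuclear RNA genes encode the RNA parts of the splicing machinery. Of 1004 such genes, 14 lay under a stable distal peak and 25 under any WT peak. These 14 peaks were 0.230% of the set, and the 25 were 0.0653% of the WT list. The 14 had a median rank of 10.2 in WT and 17.3 in KO. The other peaks were not split by class, so the larger share is not shown to be particular to the stable distal peaks. Any part of a lncRNA gene was overlapped by 942 stable distal peaks (15.5%), against 12.0% of the WT list. On the X chromosome lay 112 stable distal peaks, or 1.84% (1.52 to 2.21), close to the 1.84% (1.59 to 2.11) of the later distal shared peaks, with 2.79% (2.43 to 3.20) of the stable peaks at gene ends.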
